A study of Mus musculus with 6 samples.

Results

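Genes that hold more than 1 transcript row in a PRO-seq table of mouse blood progenitors were examined start by start. Of the 3022 transcript rows in the deposited table, 556 belonged to 278 genes that occurred in at least 2 rows, and the other 2466 genes had 1 row each. All 278 genes had exactly 2 rows. The rows of a gene were told apart by their 5′ ends, called the upstream and the downstream start in the direction of transcription. PRO-seq maps RNA polymerases engaged in transcription: in isolated nuclei the polymerases add biotin-tagged bases to the RNA they are making, which is then pulled down and sequenced. The cells were cKIT+ bone marrow progenitors of female Mllt3 flox/flox Rosa26Cre+ mice on the C57/BL6 background. They had been transduced with wild-type MLLT3 (WT, 3 libraries) or with MLLT3 K63E K67E (DM, the double mutant, 3 libraries), sorted, and grown in methylcellulose with cytokines for 8 days. Both groups received 200 nM 4-hydroxytamoxifen, by which the endogenous Mllt3 was to be deleted, so the comparison is of 2 added proteins and holds no cells without MLLT3. The run-on lasted 3 min, and the labels place all 6 libraries in batch 1. Nothing in the labels says that the replicates came from separate animals or cultures, so every p-value measures only the spread between these libraries.

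Many mammalian genes can be transcribed from alternative promoters. The promoters of a gene can answer to different regulators, and their transcripts can differ in the first exon, and hence in the start of the protein or in its untranslated leader, while sharing later exons. At each promoter, polymerase tends to pause shortly after initiation and is released into the gene body by elongation factors. MLLT3, also named AF9, reads acetylated and crotonylated histones through its YEATS domain and is a partner of elongation factors, and it is known as a regulator of blood stem cells. The question put to these data was at which of the 2 starts of a gene the difference between DM and WT lay.

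The start of a row was read from its head window, a stretch of 330 bp that begins 30 bp before the 5′ end, and the rest of the transcript is its body. All 278 pairs of rows shared their 3′ end, so the body of the downstream row lies inside that of the upstream row. Polymerase that passes from the upstream start is therefore counted in the downstream window as well. The 5′ ends lay from 352 to 1004657 bp apart, with a median of 1364.5 bp. They were under 1000 bp apart in 118 genes, from 1000 bp to under 10000 bp in 76 and 10000 bp or more in 84. In no gene did the head windows overlap each other. The upstream window held more head reads in 164 genes and the downstream window in 114, and the window with more reads held a median of 72.7% of the pair's head reads. The density of reads in the head was a median of 10.5 times that of the row's own body at upstream starts and 6.66 times at downstream starts. It was at least 2 times the body density at both starts in 224 genes, while 18 upstream and 4 downstream windows were less dense than their bodies. The upstream body includes the downstream head window, whereas the downstream body holds no second head. A dense downstream head therefore lowers the upstream ratio, and the ratios of the 2 starts are not measured alike. The same holds for the ratios of single genes below. In RefSeq, 64 upstream and 21 downstream windows overlapped another gene. The use of strand in counting is not given in the sources used here, so reads of such a gene cannot be told apart from those of the start.

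Promoter sequence was available in RefSeq (GRCm38.p6) within 100 bp of 139 upstream and 101 downstream starts, and at both starts in 54 genes. The following 7 stretches are shown because they belong to genes whose starts changed differently between WT and DM, and for Bcar1, Rbms1 and Aatk both starts could be set side by side. Each runs 5′ to 3′ from 150 bases before the RefSeq start to the start base. Capitals mark matches, on either strand, to the GC box GGGCGG, the TATA box TATAAA or the CAAT box CCAAT, and overlapping matches run together.
Bcar1 upstream start (chr8:111743849-111743999, minus strand): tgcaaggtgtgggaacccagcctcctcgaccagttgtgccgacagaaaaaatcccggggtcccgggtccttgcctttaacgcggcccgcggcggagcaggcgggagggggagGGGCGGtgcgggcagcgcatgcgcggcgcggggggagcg
Bcar1 downstream start (chr8:111732136-111732286, minus strand): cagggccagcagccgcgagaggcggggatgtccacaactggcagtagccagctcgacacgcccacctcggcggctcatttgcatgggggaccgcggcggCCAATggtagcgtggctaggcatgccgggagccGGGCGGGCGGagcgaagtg
Rbms1 upstream start (chr2:60963204-60963354, minus strand): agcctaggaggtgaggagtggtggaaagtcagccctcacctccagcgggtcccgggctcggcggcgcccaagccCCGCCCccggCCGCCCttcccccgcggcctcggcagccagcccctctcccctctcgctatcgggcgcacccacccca
Rbms1 downstream start (chr2:60881438-60881588, minus strand): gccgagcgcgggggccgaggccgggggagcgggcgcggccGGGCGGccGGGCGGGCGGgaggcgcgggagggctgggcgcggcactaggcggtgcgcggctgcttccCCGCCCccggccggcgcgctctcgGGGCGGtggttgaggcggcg
Aatk upstream start (chr11:120047145-120047295, minus strand): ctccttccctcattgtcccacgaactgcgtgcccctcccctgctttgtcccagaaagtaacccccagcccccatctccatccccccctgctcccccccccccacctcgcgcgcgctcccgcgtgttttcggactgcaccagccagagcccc
Aatk downstream start (chr11:120041781-120041931, minus strand): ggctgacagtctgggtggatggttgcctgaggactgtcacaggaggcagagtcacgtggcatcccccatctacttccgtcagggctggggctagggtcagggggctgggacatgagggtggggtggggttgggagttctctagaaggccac
Tnip1 upstream start (chr11:54962940-54963090, minus strand): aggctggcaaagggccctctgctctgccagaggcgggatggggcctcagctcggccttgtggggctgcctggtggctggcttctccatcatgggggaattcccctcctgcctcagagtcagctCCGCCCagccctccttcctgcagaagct
None of the 7 stretches held TATAAA, and the CAAT box occurred in the downstream stretch of Bcar1. Of those not printed, the downstream stretch of Iqsec1 held 1 CAAT box and 2 GC boxes, and that of Adipor2 held neither. The Rbms1 starts held 2 and 5 GC boxes upstream and downstream, and both Aatk stretches held none. CpG pairs numbered 9 in the upstream and 2 in the downstream stretch of Aatk, 14 and 29 in those of Rbms1, 18 and 16 in those of Bcar1 and 3 in that of Tnip1. Over windows of 300 bp, the GC box was present at 77.0% of the matched upstream and 57.4% of the matched downstream starts, against 35.6% of all 32817 RefSeq promoter windows of that length. The TATA box was present at 6.47% and 6.93% against 13.6%, and the CAAT box at 31.7% and 33.7% against 37.4%. The median number of CpG pairs was 21 upstream and 17 downstream against 7 over all windows. Where both starts were matched, CpG pairs were more frequent upstream in 29 genes and downstream in 25. A match describes the letters and is not a binding site by itself.

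Library totals ran from 15112853 reads in WT replicate 2 to 22981603 in WT replicate 1. The member head windows held 0.461% ± 0.101 of the WT and 0.413% ± 0.0109 of the DM totals (SD, n = 3 each), and this share was 0.368% in WT replicate 1 and 0.568% in WT replicate 2. Counts of replicate libraries differed by more than sampling noise, with chi-square values of 7.99 to 12.6 per degree of freedom in WT and 1.70 to 2.44 in DM. Kit, the receptor that marks the cells, and Mllt3 had 1 row each. Their head log2 fold changes were -1.14 (SE 0.140, adjusted p = 2.27e-04) and -0.61 (SE 0.286, adjusted p = 0.101) in edgeR's quasi-likelihood test. Reads of the added MLLT3 and of the endogenous gene could not be told apart. Fewer cells of a type and less nascent RNA per cell cannot be told apart in these bulk samples. Below, normalised head reads are head counts divided by the library's TMM scale factor (from 0.899 to 1.13), and fold changes are DM over WT on the log2 scale.

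Head reads changed at 227 of the 520 member windows that passed the filter on low counts, 118 higher and 109 lower in DM (edgeR's quasi-likelihood test, Benjamini-Hochberg adjusted p under 0.05 over all rows). This is 43.7% (22.7% higher, 21.0% lower), beside 39.1% of all 2834 tested rows (20.0% higher, 19.2% lower) and 38.1% of the rows of genes with 1 row (19.4% higher, 18.8% lower). In the authors' deposited table every row held had passed an adjusted p of 0.05 for its body reads, so body changes are given only as a description. The head shares above and the TMM scaling rest on these same kept rows, so they do not stand for all genes. Each downstream head window also lies inside the body by which its upstream row was kept. Head calls are therefore not independent of the choice of rows. In that table the body change had the same sign in both rows of all 278 genes, higher in DM in 158 and lower in 120. The 2 bodies of a gene share reads and both rows were kept for their body change, so this agreement was largely fixed in advance. At upstream starts 54 windows rose and 54 fell, and at downstream starts 64 rose and 55 fell. Among the 243 genes with both windows tested, both rose in 31 and both fell in 25. The upstream window alone passed in 46 genes and the downstream window alone in 50, opposite changes passed in 2, and neither window passed in 89. A window that passed alone does not show that the starts differ, and the difference itself was tested separately. The change had the same sign at both starts in 195 of 243 genes (80.2%), and its correlation between starts across genes was 0.74, a description over genes whose windows share libraries and passing polymerase. Scaled by library totals, 112 member windows passed instead of 227. Without DM replicate 1, 2 or 3, 109, 143 and 99 passed.

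**Figure D1:**
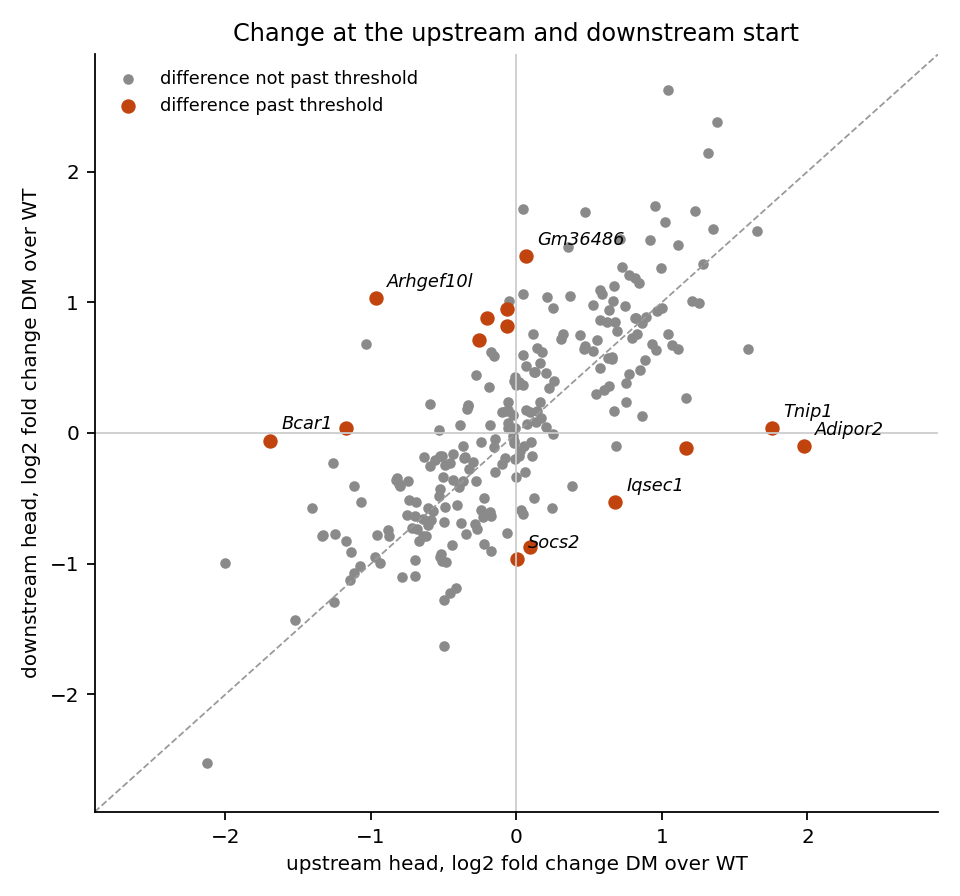
Each point is 1 of 243 genes whose 2 head windows were both tested, with the log2 fold change DM over WT at the upstream start on the x axis and at the downstream start on the y axis, and the dashed line marks equal change. Orange points are genes whose difference between starts passed an adjusted p of 0.05. Most genes lie along the diagonal, while Adipor2 and Tnip1 lie far right at a downstream change near 0 and Arhgef10l lies in the upper left quadrant.

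The change differed between the 2 starts in 17 of 278 genes, 6.12% (edgeR's quasi-likelihood test of the interaction of window and group, adjusted p under 0.05 over all pairs). The downstream change was the higher one in 10 of them (3.6%) and the upstream change in 7 (2.52%). An unadjusted p under 0.05 was reached by 52 genes. In 12 of the 17 the window with more head reads had not passed on its own, and in 11 of these the window with fewer reads had. Among all genes in which 1 window passed alone, it held more reads in 32 of the 46 upstream and 24 of the 50 downstream cases. A test of the difference also favours genes in which only 1 window moves. The 56 genes in which both starts changed in the same direction gave 0 such calls, with 5 at an unadjusted p under 0.05 and 0 in DESeq2. The 89 genes in which neither window passed likewise gave 0, with 5 at an unadjusted p under 0.05 and 0 in DESeq2. Both sets were picked by the same head counts that enter the test of the difference, so their 0 calls were largely fixed in advance. DESeq2 called 8 pairs in all. The count was 10 without WT replicate 3, 9 without DM replicate 1, 2 without DM replicate 2 and 3 without DM replicate 3. After reads at the density of the stretch between the starts were subtracted from the downstream window, 0 of 160 genes passed, with 28 at an unadjusted p under 0.05. The 13 called genes among them kept the sign of their difference, which was for example -2.10 in Adipor2, 2.48 in Arhgef10l, -1.40 in Iqsec1 and 2.78 in Gja5. Reads were taken from the downstream window alone. Where the stretch moved with the upstream start, as in Adipor2, Arhgef10l and Iqsec1, the kept sign was largely fixed in advance. With at least 20 reads left in each window 8 of 91 passed.

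In 3 genes the upstream start gained reads while the downstream start, which held most of the head reads, did not pass. Adipor2, which encodes an adiponectin receptor (ENSMUSG00000030168.13, chromosome 6, minus strand), has starts 28789 bp apart, at 119417475 and 119388686. Its upstream window, of transcript Adipor2-205, held 13.3, 17.3 and 19.4 normalised head reads in WT against 61.3, 62.5 and 76.4 in DM. All DM libraries lay above all WT libraries, and the log2 fold change was 1.98 (edgeR, SE 0.281, adjusted p = 4.56e-04). The downstream window, of Adipor2-202, held 508, 731 and 414 in WT against 528, 505 and 508 in DM. There the groups overlapped, with WT replicate 2 the highest library, and the change was -0.10 (edgeR, SE 0.186, adjusted p = 0.701). The downstream minus upstream difference was -2.04 (edgeR, SE 0.315, adjusted p = 0.00168). The downstream share of the pair's head reads went from 96.9% ± 1.19 in WT to 88.5% ± 1.40 in DM (SD, n = 3 each). Between the starts, the transcribed stretch held 36.7 ± 4.43 reads per 1000000 of the library total (RPM) in WT and 105 ± 12.1 in DM. In the authors' deposited table the body changes of the 2 rows were 0.88 and 0.84. The upstream head was 1.86 times as dense as its body and the downstream head 24.0 times.

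Tnip1 (ENSMUSG00000020400.17, chromosome 11, minus strand), whose product binds the deubiquitinase A20 and restrains NF-κB signalling, has starts 6790 bp apart, at 54962912 and 54956122. The upstream window held 12.2, 8.16 and 17.7 normalised head reads in WT against 36.0, 42.7 and 52.7 in DM, which is a change of 1.76 (edgeR, SE 0.353, adjusted p = 0.00228). The downstream window held 204, 186 and 240.4 in WT against 189.8, 217 and 241 in DM, with a change of 0.04 (edgeR, SE 0.172, adjusted p = 0.880). The groups were apart at the upstream start and overlapped at the downstream one, and the difference was -1.73 (edgeR, SE 0.295, adjusted p = 0.00274). The stretch between the starts went from 11.7 ± 4.07 to 23.4 ± 0.372 RPM. The upstream head was 1.43 times as dense as its body. The upstream sequence is the Tnip1 stretch printed above. Rbms1, which encodes a protein that binds single-stranded nucleic acid, followed the same pattern over 81722 bp and was chosen after its values were seen. Its upstream window held 25.6, 18.4 and 19.4 normalised head reads in WT against 46.7, 42.7 and 52.7 in DM, and its downstream window went from 414 ± 120.1 to 384 ± 32.1 (SD, n = 3 each). The upstream change was 1.17 (edgeR, SE 0.289, adjusted p = 0.00738) and the difference -1.25 (edgeR, SE 0.337, adjusted p = 0.0375). The Rbms1 difference passed in 6 of 16 settings, with adjusted p from 0.00448 to 0.208. Counts of settings include the main fit and the fit with no filter, which gave the same values, and leave out settings that a gene did not enter. The differences of Adipor2 and Tnip1 each passed in 14 of 15 settings. Neither gene entered the setting that asked for at least 2 times the body density in both heads, as their upstream heads were less dense. The exception among the 15 was the subtraction of the stretch between the starts (edgeR adjusted p = 0.0588 and 0.0509). After that subtraction the differences were -2.10 and -1.85, and with at least 20 reads left in each window both passed (edgeR adjusted p = 0.00846). The subtraction took reads from the downstream window alone, and the stretch rose in DM in both genes. These differences could therefore only grow in size, and the upstream windows were left uncorrected.

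Bcar1 lost reads at its upstream start. It encodes p130Cas, a scaffold of adhesion signalling (ENSMUSG00000031955.10, chromosome 8, minus strand), and its starts, whose sequences are printed above, lie 11704 bp apart at 111743809 and 111732105. At the upstream start there were 71.2, 49.0 and 46.0 normalised head reads in WT against 17.5, 21.8 and 11.4 in DM, so every DM library was below every WT library. The downstream window held 66.7, 40.8 and 20.3 in WT against 37.0, 37.7 and 46.5 in DM, and the DM libraries lay within the WT range. The upstream change was -1.69 (edgeR, SE 0.327, adjusted p = 0.00198), the downstream change -0.06 (edgeR, SE 0.362, adjusted p = 0.917) and the difference 1.70 (edgeR, SE 0.410, adjusted p = 0.0236). Reads in the stretch between the starts numbered 140, 15 and 23 in WT against 9, 15 and 7 in DM, so that WT replicate 1 carried most of it. In RefSeq the upstream window overlaps Gm51589. Kctd1, chosen after its values were seen, showed an upstream change of -1.17 (edgeR, SE 0.290, adjusted p = 0.00738) beside 53.9 ± 16.0 and 55.5 ± 3.53 normalised head reads downstream (SD, n = 3 each) and a difference of 1.22 (edgeR, SE 0.313, adjusted p = 0.0291). The difference of Bcar1 passed in 10 of 16 settings and not without WT replicate 3, DM replicate 2 or DM replicate 3 (edgeR adjusted p = 0.0922, 0.0539 and 0.153), nor with the replicate block or, with no minimum of reads, after subtraction of the downstream body or stretch density (edgeR adjusted p from 0.0501 to 0.0725).

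**Figure D2:**
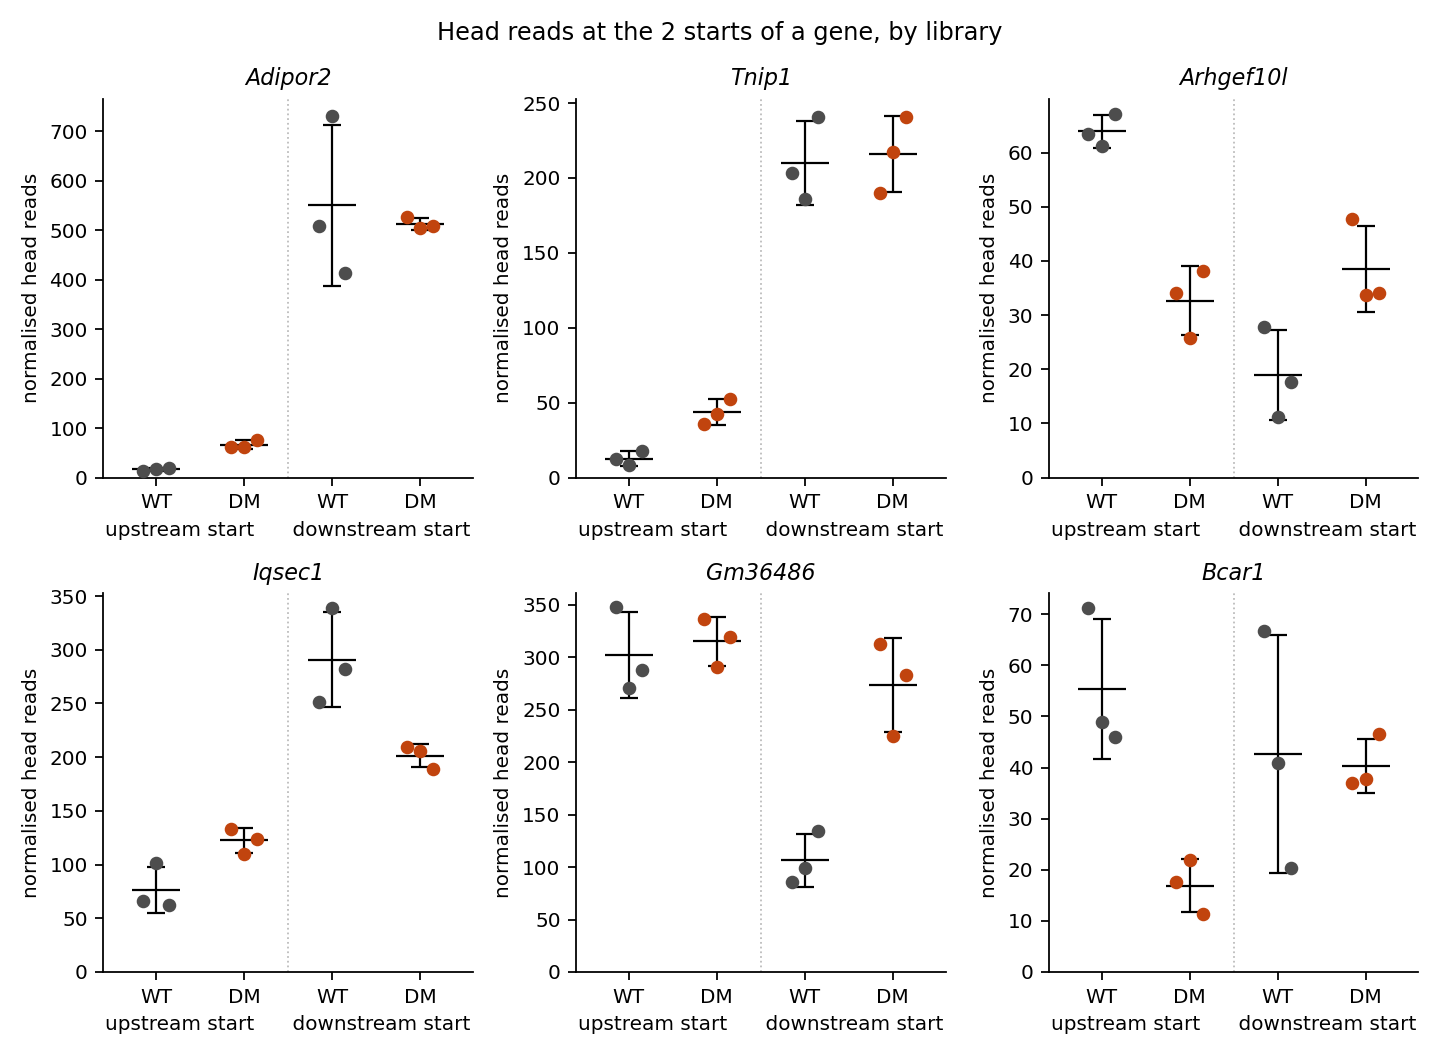
Normalised head reads (counts over the TMM scale factor, y axis) at the upstream and downstream start in each WT (grey) and DM (orange) library of 6 genes, with the mean and SD of 3 libraries as black bars. Adipor2 rises from 16.7 to 66.7 at the upstream start while its downstream start has means of 551 and 514, and Arhgef10l falls from 63.9 to 32.7 upstream and rises from 18.9 to 38.5 downstream.

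Opposite changes passed at the 2 starts of Arhgef10l and Iqsec1. Arhgef10l, a gene of a guanine nucleotide exchange factor (ENSMUSG00000040964.16, chromosome 4, minus strand), has starts 66932 bp apart. The upstream window held 63.4, 61.2 and 67.2 normalised head reads in WT against 34.1, 25.8 and 38.2 in DM. Its downstream window held 27.8, 11.2 and 17.7 in WT against 47.7, 33.7 and 34.1 in DM. The groups did not overlap at either start. The upstream change was -0.97 (edgeR, SE 0.253, adjusted p = 0.00951), the downstream change 1.03 (edgeR, SE 0.358, adjusted p = 0.0343) and the difference 2.03 (edgeR, SE 0.387, adjusted p = 0.00632). The downstream share rose from 22.3% ± 7.60 to 54.0% ± 6.04 (SD, n = 3 each). The stretch between the starts went from 67.2 ± 6.68 to 41.3 ± 3.69 RPM. In the authors' deposited table the body changes were -0.54 and -0.42, which have the sign of the upstream start. The 2 bodies share reads and polymerase from either start can pass through them. Which start supplied the body change was not tested. The difference passed in 14 of 16 settings and not without DM replicate 2 (edgeR adjusted p = 0.0539). The downstream call on its own was lost without any of WT replicate 2, WT replicate 3 and the 3 DM replicates, where the edgeR adjusted p ran from 0.0625 to 0.157, and the upstream call was lost without DM replicate 2 (edgeR adjusted p = 0.0568).

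Iqsec1 (ENSMUSG00000034312.15, chromosome 6, minus strand), which encodes an exchange factor for ARF GTPases, showed the reverse arrangement over 20158 bp. Its upstream window held 65.6, 101 and 62.7 normalised head reads in WT against 133, 110.1 and 124 in DM. Its downstream window, with more reads, held 251, 339 and 282 in WT against 209, 205 and 189 in DM. Neither start had overlapping groups, with changes of 0.68 (edgeR, SE 0.227, adjusted p = 0.0292) upstream and -0.53 (edgeR, SE 0.165, adjusted p = 0.0220) downstream. The difference was -1.23 (edgeR, SE 0.245, adjusted p = 0.00789). The stretch between the starts went from 36.7 ± 6.30 to 85.9 ± 4.29 RPM. The body changes in the authors' deposited table were 0.91 and 0.93, with the sign of the upstream start. Here too the 2 bodies share reads, and which start supplied the body change was not tested. Scaled by library totals, the head changes were 0.54 (edgeR adjusted p = 0.241) and -0.66 (edgeR adjusted p = 0.113) and no longer passed. The upstream call was also lost without any 1 library other than WT replicate 2 (edgeR adjusted p from 0.0547 to 0.118), and the downstream call without any 1 DM replicate (edgeR adjusted p from 0.0848 to 0.137). Library scaling does not enter the test of the difference, which passed in 13 of 16 settings and not without DM replicate 2 or DM replicate 3 (edgeR adjusted p = 0.0539 and 0.0840).

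In a larger group the downstream start changed and the upstream start did not pass. Gm36486, an unnamed transcript on chromosome 17 (ENSMUSG00000117575.1), held 348, 270.4 and 288 normalised head reads upstream in WT against 337, 291 and 319 in DM. Its downstream window, 2309 bp further, held 85.6, 99.0 and 134 in WT against 312, 225 and 283 in DM. The groups overlapped upstream and were apart downstream, where the change was 1.36 (edgeR, SE 0.204, adjusted p = 6.04e-04), and the difference was 1.29 (edgeR, SE 0.267, adjusted p = 0.00871). In RefSeq its upstream window overlaps Gm36199. Gja5, which encodes a gap junction protein of the connexin family, went downstream from 10.5 ± 1.66 to 50.5 ± 12.6 normalised head reads (SD, n = 3 each), a change of 2.24 (edgeR, SE 0.338, adjusted p = 6.04e-04). Its upstream window, 127723 bp away, overlaps Gpr89 in RefSeq, held from 3 to 16 reads a library and was below the filter of the head test. Its difference was 2.81 (edgeR, SE 0.643, adjusted p = 0.0198).

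Aatk, a gene of a kinase linked to apoptosis in myeloid cells, rose at the downstream start, which held nearly all its head reads. The downstream window held 167, 127 and 178 normalised head reads in WT against 267, 237 and 259 in DM, a change of 0.69 (edgeR, SE 0.175, adjusted p = 0.00801). The upstream window, 5288 bp before it, held 14.5, 10.2 and 17.7 in WT against 3.89, 7.94 and 9.30 in DM, and it was below the filter of the head test. All DM libraries lay below all WT libraries in that upstream window. The difference was 1.70 (edgeR, SE 0.397, adjusted p = 0.0209). It holds this upstream fall, in a window with few reads, as well as the downstream rise. Ugp2, which encodes the enzyme that makes UDP-glucose, rose downstream from 112 ± 44.4 to 185 ± 7.14 (SD, n = 3 each; change 0.71, SE 0.246, edgeR adjusted p = 0.0337), beside 161 ± 20.0 and 135 ± 12.6 upstream. Its difference was 1.03 (edgeR, SE 0.262, adjusted p = 0.0291). Scaled by library totals, the downstream changes of Aatk and Ugp2 no longer passed (edgeR adjusted p = 0.0777 and 0.292), and that of Ugp2 was also lost without any 1 library other than WT replicate 2 (edgeR adjusted p from 0.0614 to 0.116).

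Further pairs past the threshold were chosen after their values were seen. Socs2, which encodes a suppressor of cytokine signalling, fell at the downstream start from 151 ± 13.0 to 77.0 ± 9.16 normalised head reads (SD, n = 3 each), with a difference of -0.97 (edgeR, SE 0.251, adjusted p = 0.0291). Its upstream start, 645 bp away, held 228 ± 17.1 and 229 ± 13.0. Slc41a3 likewise fell downstream (difference -0.97, SE 0.270, edgeR adjusted p = 0.0409), while the downstream start rose in Tm6sf1 (0.87, SE 0.241, edgeR adjusted p = 0.0391) and Vrk3 (edgeR adjusted p = 0.0415). Ccnb1ip1 rested on 1 library: its downstream window held 93 reads in WT replicate 1 and from 2 to 9 in the other libraries, and its upstream window overlaps Rpph1, the gene of the RNA of RNase P. The calls in this and the preceding paragraphs depend on single libraries to different degrees. Without DM replicate 2 or DM replicate 3, Gm36486 did not pass (edgeR adjusted p = 0.0539 and 0.0889), nor did Gja5 (0.0539 and 0.128), Aatk (0.0539 and 0.0739) or Ugp2 (0.170 and 0.128). Without WT replicate 3, Gja5, Aatk and Ugp2 were also lost, and without DM replicate 1 Aatk and Ugp2. Ugp2 was lost without WT replicate 1 too. In DESeq2, Aatk and Ugp2 did not pass (adjusted p = 0.0543 and 0.0585), and Gm36486 was lost under both subtractions of the stretch between the starts (edgeR adjusted p = 0.317 and 0.215). Of the settings tried, the difference passed in 12 of 16 for Gm36486, 9 of 14 for Gja5, 6 of 13 for Aatk, 5 of 13 for Ugp2, 8 of 16 for Kctd1, 7 of 16 for Slc41a3, 5 of 16 for Tm6sf1, 7 of 14 for Ccnb1ip1, 7 of 13 for Socs2 and 5 of 13 for Vrk3.

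The starts were then grouped by their distance. The correlation of upstream and downstream changes across genes was 0.81 (Spearman 0.82, n = 109) under 1000 bp, 0.81 (Spearman 0.82, n = 68) from 1000 bp to under 10000 bp and 0.57 (Spearman 0.55, n = 66) at 10000 bp or more. These are descriptions across genes, whose close starts share more passing polymerase. The median size of the difference was 0.28, 0.39 and 0.51, and its median standard error 0.279, 0.290 and 0.361. The difference passed in 4 of 118, 4 of 76 and 9 of 84 genes, which is 3.39%, 5.26% and 10.7%. Whether these shares differ was not tested. Of the 160 genes with starts at least 1000 bp apart, the stretch between the starts was under 0.5 times as dense as the downstream body in 42 and over 2 times as dense in 45, with a median of 1.03. Its mean RPM moved in the direction of the authors' deposited body change in 155 of the 160. That stretch is part of the upstream body, and all rows were kept for their body change, so this count was largely fixed in advance.

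**Figure D3:**
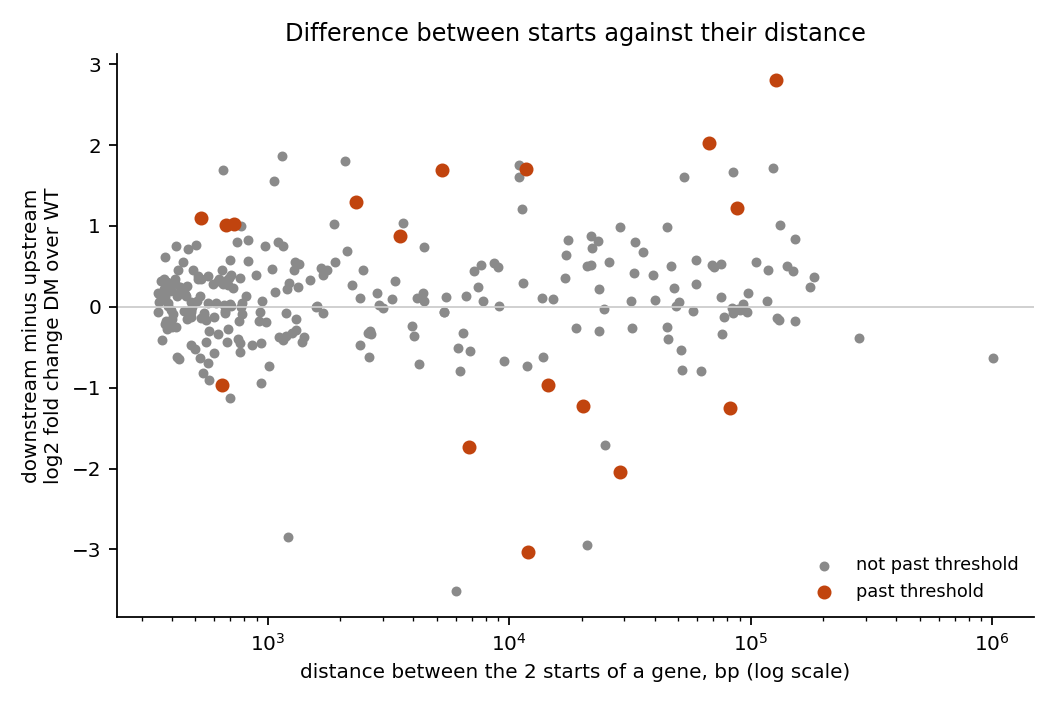
Difference between the changes at the 2 starts (downstream minus upstream log2 fold change, y axis) against their distance in bp on a log axis for all but 1 of 278 genes, that gene lying beyond the axis limit of 4. Orange points passed an adjusted p of 0.05, and they make up 3.39% of genes with starts under 1000 bp apart and 10.7% of those at 10000 bp or more.

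The 5 most distant pairs with at least 20 mean reads in each window gave 0 differences past the threshold in edgeR, 0 at an unadjusted p under 0.05 and 0 in DESeq2. Trio, which encodes a guanine nucleotide exchange factor, has starts 281541 bp apart. Its upstream window rose from 41.9 ± 9.18 to 88.0 ± 5.34 normalised head reads (SD, n = 3 each; change 1.07, SE 0.238, edgeR adjusted p = 0.00408), and the downstream window held 24.9 ± 12.8 and 39.5 ± 11.1 (change 0.67, SE 0.380, edgeR adjusted p = 0.172). The difference of -0.38 (edgeR, SE 0.354, adjusted p = 0.585) did not pass. Tiam1, a Rac exchange factor gene, fell at the upstream start from 168 ± 25.0 to 114 ± 24.2 (change -0.56, SE 0.203, edgeR adjusted p = 0.0425), and its downstream start, 182942 bp further, held 208 ± 28.3 and 180.3 ± 10.9. The upstream call was lost under library totals (edgeR adjusted p = 0.129), with no filter (edgeR adjusted p = 0.0532) and without WT replicate 2 or any 1 DM replicate (edgeR adjusted p from 0.0624 to 0.234). Stxbp5, which encodes the syntaxin-binding protein tomosyn, fell upstream from 408 ± 101 to 265 ± 17.3 (change -0.62, SE 0.182, edgeR adjusted p = 0.0169), and that call was lost under library totals (edgeR adjusted p = 0.0886) and without any 1 DM replicate (edgeR adjusted p from 0.0596 to 0.110). The downstream window of Stxbp5 held 37.2 ± 17.2 and 21.3 ± 1.44 (SD, n = 3 each), and its change of -0.79 (edgeR, SE 0.363, adjusted p = 0.0972) passed without WT replicate 2 (-1.06, edgeR adjusted p = 0.0166). Neither start passed in Macf1, a cytoskeletal linker gene, with 50.5 ± 15.0 and 58.3 ± 5.84 upstream and 54.4 ± 11.8 and 56.2 ± 7.16 downstream. In Phactr2, a gene of an actin and phosphatase regulator, the downstream window held 60.6 ± 6.97 in WT and 86.4 ± 9.62 in DM, the groups were apart, and the change of 0.51 (edgeR, SE 0.219, adjusted p = 0.0756) did not pass.

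Among member windows with a mean of at least 50 head reads and no overlap of WT and DM libraries, the 5 largest rises lay in Tnfaip2, Lrp1, Klf4 and Nrp2, and in each of these genes both starts rose. Tnfaip2, a gene induced by tumour necrosis factor, held 348, 425 and 374 normalised head reads upstream in WT against 923, 830.2 and 935 in DM. Its downstream window held 125, 85.7 and 129 in WT against 425, 315 and 364 in DM. The groups were apart at both starts, with changes of 1.23 (SE 0.144) and 1.70 (SE 0.195), both with an edgeR adjusted p of 2.00e-04, and the difference of 0.47 (edgeR, SE 0.267, adjusted p = 0.344) did not pass. Lrp1, which encodes a large endocytic receptor, rose at starts 77714 bp apart by 1.65 (edgeR, SE 0.315, adjusted p = 0.00195) and 1.54 (edgeR, SE 0.255, adjusted p = 8.97e-04). Its upstream window went from 28.9 ± 13.6 to 92.7 ± 15.3 and its downstream window from 27.2 ± 4.84 to 80.2 ± 11.1 (SD, n = 3 each). Nrp2, the gene of the semaphorin and VEGF co-receptor neuropilin 2, rose by 0.71 (edgeR, SE 0.223, adjusted p = 0.0224) upstream and 1.48 (edgeR, SE 0.286, adjusted p = 0.00198) downstream. The difference of Nrp2 passed without WT replicate 1 (1.14, edgeR adjusted p = 0.0303) and not with all libraries (0.75, SE 0.330, edgeR adjusted p = 0.212). Its upstream call was lost under library totals (edgeR adjusted p = 0.211) and without any 1 library other than WT replicate 2 (edgeR adjusted p from 0.0520 to 0.111).

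By the same rule the 5 largest falls lay in Mycn, Axin2, Lif and Dnaja4. Axin2, which encodes a brake on Wnt signalling, held 115, 142 and 157 normalised head reads upstream in WT against 53.5, 69.4 and 50.6 in DM. Its downstream window, 451 bp further, held 75.6, 84.7 and 69.8 in WT against 41.9, 27.8 and 23.8 in DM. Every DM library was below every WT library at both starts, with changes of -1.25 (edgeR, SE 0.220, adjusted p = 0.00124) and -1.29 (edgeR, SE 0.268, adjusted p = 0.00268). Lif, the gene of a cytokine of the interleukin 6 family, fell at the downstream start, which held 1188, 532 and 549.7 in WT against 331, 330.3 and 309.8 in DM. WT replicate 1 stood far above the other WT libraries, the DM libraries lay below all of them, and the change was -1.22 (edgeR, SE 0.255, adjusted p = 0.00283). The upstream window of Lif, 9538 bp before, held 13.8 ± 5.95 and 9.94 ± 4.09 and was 0.107 times as dense as its body. Dnaja4, which encodes a co-chaperone of HSP70, fell downstream from 1275 ± 114 to 552 ± 43.0 (SD, n = 3 each; change -1.21, SE 0.142, edgeR adjusted p = 2.00e-04). Upstream there were from 1 to 4 reads a library, so 1 start carried nearly all its head reads.

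Of the 54 blood transcription factors listed, 28 were in the table and 9 had 2 rows. All 18 of their windows were tested, and 5 rose and 7 fell, beside 20.0% higher and 19.2% lower over all tested rows. Their median change was -0.29 beside -0.01 over all rows. Their difference between starts passed in 0 of 9 genes in edgeR, with 2 at an unadjusted p under 0.05 and 0 in DESeq2. Gata2, a factor of stem, progenitor and mast cells, fell at both starts. Its upstream window held 917, 1029.5 and 1214 normalised head reads in WT against 433, 566 and 499.9 in DM, and its downstream window, 4443 bp further, 2512, 1851 and 1572 in WT against 1129, 919 and 873 in DM. The groups were apart at both starts, the changes were -1.08 (edgeR, SE 0.158, adjusted p = 5.43e-04) and -1.02 (edgeR, SE 0.182, adjusted p = 0.00132), and the difference was 0.07 (edgeR, SE 0.303, adjusted p = 0.945). In RefSeq the upstream window overlaps Gm38708. Mycn, a MYC family gene, fell at its upstream start, which held 947, 708 and 801 in WT against 319, 378 and 279.9 in DM (change -1.33, SE 0.164, edgeR adjusted p = 2.27e-04). Its downstream window, 1298 bp further, held 66.3 ± 27.6 and 38.2 ± 15.5 (SD, n = 3 each; change -0.78, SE 0.342, edgeR adjusted p = 0.0829). That window was 1.61 times as dense as its body, and its change passed without DM replicate 2 (edgeR adjusted p = 0.0462) and with replicate number as a block (edgeR adjusted p = 0.0331).

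Tal1, a founding factor of blood stem cells, fell at the downstream start, which held 364, 235 and 427 normalised head reads in WT against 182, 233 and 189 in DM (change -0.76, SE 0.210, edgeR adjusted p = 0.0121). Its upstream window, 1012 bp before, held 43.9 ± 17.7 and 41.9 ± 2.49 (SD, n = 3 each) and was 0.371 times as dense as its body. In RefSeq the downstream window overlaps Gm33786. The difference of -0.73 (SE 0.274) had an unadjusted p of 0.0162 and an edgeR adjusted p of 0.126. Gfi1, the gene of a repressor that acts in granulocyte and lymphoid development, fell upstream (change -0.59, SE 0.212, edgeR adjusted p = 0.0405) and downstream (change -0.67, SE 0.238, edgeR adjusted p = 0.0386). Runx3 fell downstream from 373 ± 21.3 to 261 ± 48.5 (change -0.51, SE 0.167, edgeR adjusted p = 0.0265), and its upstream window, 31844 bp before, held 171, 57.1 and 229.8 in WT against 80.8, 101 and 94.0 in DM. WT replicate 2 lay inside or below the DM range there, and the upstream change did not pass (edgeR adjusted p = 0.111). Klf4, a factor of monocytes, rose from 413, 647 and 442 to 1214, 789.5 and 1041 upstream and from 61.2, 61.2 and 48.6 to 213, 142 and 168 downstream. Its changes were 1.02 (edgeR, SE 0.198, adjusted p = 0.00198) and 1.62 (edgeR, SE 0.217, adjusted p = 3.55e-04), and its difference of 0.58 had an unadjusted p of 0.0394 and an edgeR adjusted p of 0.222. The upstream call of Klf4 was lost under library totals (edgeR adjusted p = 0.0615).

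Maf, a macrophage factor gene, rose upstream (0.82; edgeR, SE 0.281, adjusted p = 0.0323) and downstream (0.88; edgeR, SE 0.327, adjusted p = 0.0469). Zeb2, a factor of myeloid and lymphoid development, rose at its upstream start from 139 ± 38.3 to 221 ± 16.6 normalised head reads (SD, n = 3 each; change 0.67, SE 0.203, edgeR adjusted p = 0.0191). Its downstream start, 6880 bp further, held 262 ± 30.9 and 295 ± 61.2. Runx1, a gene with distant promoters, passed at neither start. Both of its rows here lie within 1203 bp of each other, close to the more downstream of its RefSeq starts, so its distal promoter was not analysed here. Upstream there were 779.5, 575 and 896 in WT against 781, 674 and 760.1 in DM, and downstream 523, 220.4 and 491 in WT against 525, 399.7 and 433 in DM. The changes were -0.02 (edgeR, SE 0.168, adjusted p = 0.928) and 0.14 (edgeR, SE 0.250, adjusted p = 0.697).

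**Figure D4:**
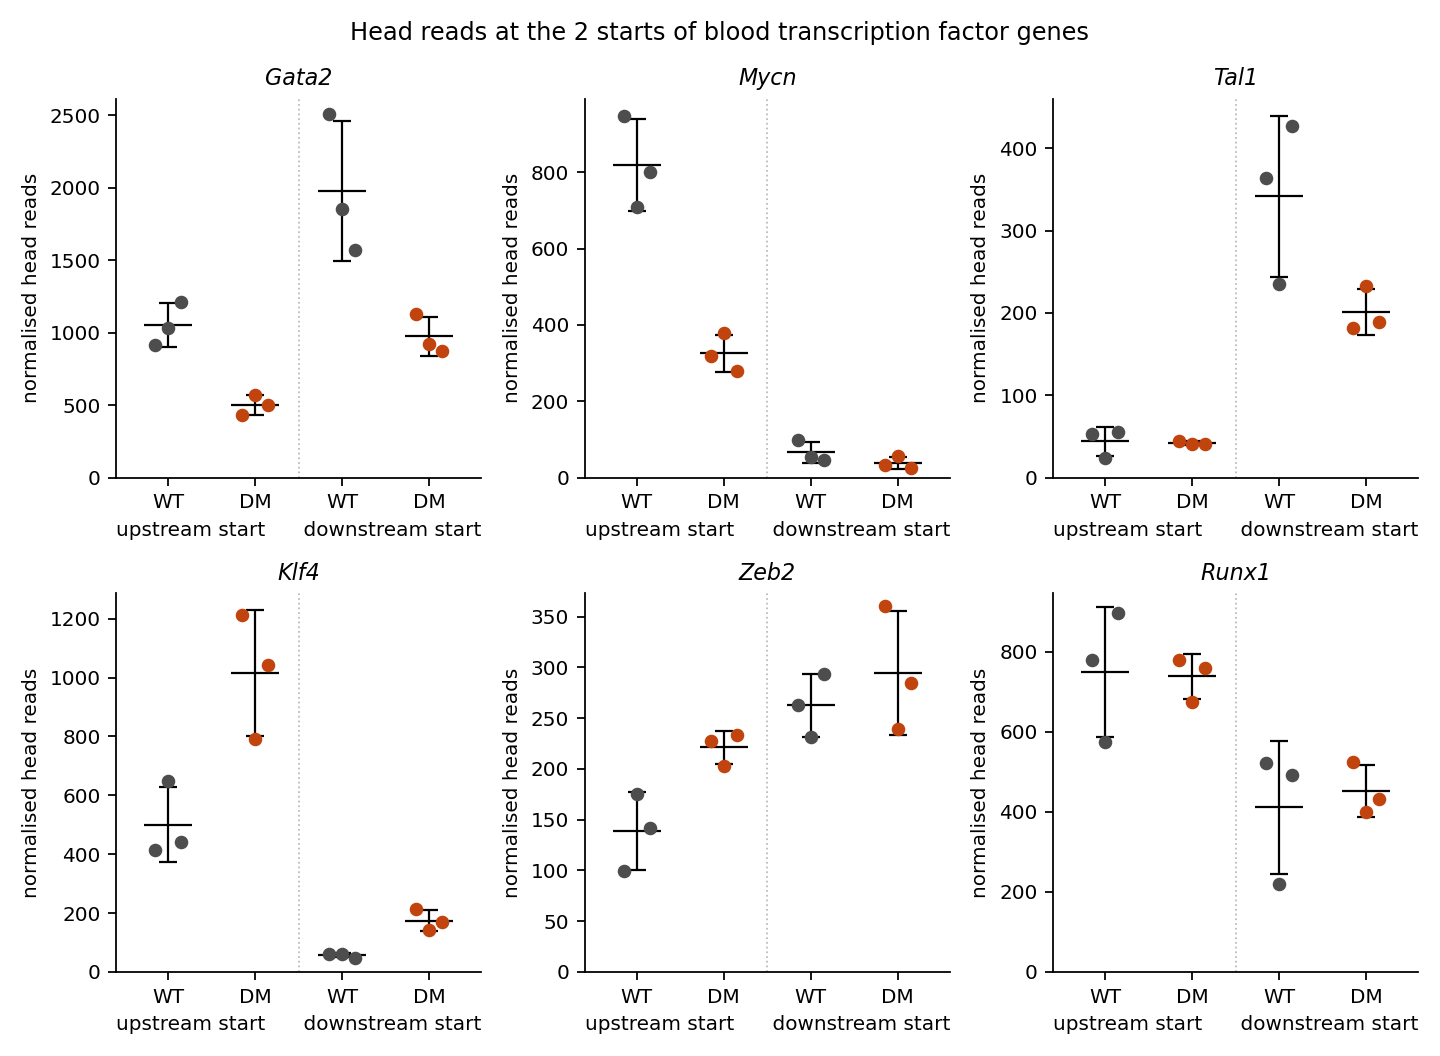
Normalised head reads (counts over the TMM scale factor, y axis) at the upstream and downstream start of 6 blood transcription factor genes in each WT (grey) and DM (orange) library, with the mean and SD of 3 libraries as black bars. Gata2 falls at both starts, Mycn and Tal1 at the start with more reads, Klf4 rises at both, Zeb2 at the upstream start, and Runx1 overlaps between groups at both.

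Of 37 myeloid effector genes listed, 23 were in the table and 3 had 2 rows, and all 5 of their tested windows rose, beside 20.0% of all tested rows. Csf2ra, which encodes the GM-CSF receptor alpha chain, held 156, 148 and 111 normalised head reads upstream in WT against 217, 190.4 and 244 in DM, and downstream 199, 169 and 129.9 in WT against 259.9, 239 and 238 in DM. The groups were apart at both starts, and the changes of 0.65 (edgeR, SE 0.185, adjusted p = 0.0139) and 0.57 (edgeR, SE 0.182, adjusted p = 0.0248) were lost under library totals (edgeR adjusted p = 0.148 and 0.192). They were also lost without WT replicate 3, DM replicate 1 or DM replicate 3 (edgeR adjusted p from 0.0504 to 0.0968), the downstream one without DM replicate 2 as well. Il1r2, the decoy receptor for interleukin 1, rose by 0.77 (edgeR, SE 0.239, adjusted p = 0.0217) upstream and 1.21 (edgeR, SE 0.352, adjusted p = 0.0159) downstream. Both Il1r2 calls were lost without WT replicate 3 or DM replicate 1 (edgeR adjusted p from 0.0600 to 0.0911), and the upstream one without DM replicate 3 and under library totals. Mmp9, which encodes a secreted protease of neutrophils and macrophages, rose at its downstream start from 26.7 ± 13.3 to 56.6 ± 4.52 (SD, n = 3 each; SE of the log2 change 0.344, edgeR adjusted p = 0.0222), and its upstream window held from 0 to 2 reads. The Mmp9 call was lost without WT replicate 3 or any 1 DM replicate (edgeR adjusted p from 0.0533 to 0.0773) and under library totals (edgeR adjusted p = 0.0918).

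Among 16 stem and progenitor genes listed, 8 were in the table and Cdk6, a cell cycle kinase gene, had 2 rows. The upstream window held 93.7 ± 6.73 normalised head reads in WT and 73.4 ± 5.73 in DM and its downstream window 199 ± 14.1 and 175 ± 7.86 (SD, n = 3 each), and neither change passed (edgeR adjusted p = 0.181 and 0.392). Kdm2b, which encodes a histone demethylase bound to CpG islands, was the gene with 2 rows among 37 chromatin regulators. It held 82.2 ± 2.63 and 81.3 ± 6.48 upstream and 164 ± 30.0 and 158 ± 2.51 downstream, 88178 bp apart, and passed at neither start (edgeR adjusted p = 0.958 and 0.823). Gata2 was also the gene with 2 rows among 14 mast and basophil genes, of which 6 were in the table. The erythroid and megakaryocyte, lymphoid and elongation factor lists had 4, 2 and 5 genes in the table, each with 1 row.

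Over all pairs, the median downstream share of head reads was 41.6% ± 0.578 in WT and 44.0% ± 0.528 in DM (SD over 3 library medians each). The lowest DM library, at 43.5%, lay above the highest WT library, at 42.1%. With reads pooled over pairs the order turned, with 44.8% ± 1.70 in WT and 43.9% ± 0.764 in DM, so no direction holds for the members as a whole. The difference between the changes at the 2 starts had a median of 0.11 and was above 0 in 166 of 278 genes (59.7%).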

How the data were processed

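Nascent RNA was measured by PRO-seq in 3 WT and 3 DM libraries. The authors deposited 1 table of raw counts per transcript head and body window, with library totals, per the file headers. It also holds the authors' log2 fold change of the body and its adjusted p-value, and only rows with a p-value under 0.05 are in it. Bowtie 1.1.2, bedtools 2.28, cutadapt, Trimmomatic, MACS2 and the builds mm10 and dm3 are named, with no role, per the submitters' processing notes. Use of strand and the counting of library totals are not given in the sources used here.

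Rows were grouped by gene name. Head counts were tested over all rows with edgeR 4.0.16 (R 4.3.3; TMM scaling, filterByExpr with a minimum count of 10, glmQLFit and glmQLFTest, Benjamini-Hochberg adjustment at 0.05). The difference between starts was the interaction of window and group with library as a block, over 278 pairs. The standard error is the size of the log2 fold change over the root of F. DESeq2 1.42.0, limma 3.58.1, Python 3.11.15 and pandas 2.3.3 were also used, and the fits were tested on simulated data. There, 94.5% of 200 seeded head changes and 63.3% of 60 seeded differences between starts were recovered, with 6 and 0 false calls. The simulation gave all rows and both groups 1 dispersion, while the real WT libraries varied more than the DM libraries. Its seeded changes all had 1 size, lay only in windows with a mean of at least 20 reads, and left most rows unchanged. The recovered shares therefore do not carry over to smaller changes or sparser windows. Alternatives were other scalings, filters, thresholds and tools, the replicate block, subtraction of passing reads, and leaving out each library. Precision is limited by 3 libraries a group.

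Genes named were Kit and Mllt3, the 10 lowest adjusted p-values of the difference, the 5 most distant pairs with at least 20 mean reads in each window, the 5 largest head changes each way with at least 50 mean reads and no overlap of groups, and up to 4 members of each gene list by head reads. Zeb2, Runx3, Tal1, Gfi1 and Maf complete the blood transcription factor list beyond that rule. 1 gene that the rule names is not reported here. The members and lists were chosen with earlier results of these data known.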

Additional observations from a re-analysis of the deposited data

How the results depend on the processing

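The 227 member windows with a changed head count (118 higher, 109 lower) became 112 (55, 57) under library totals, which moved the median change of all rows by -0.096, and 111 (65, 46) at an adjusted p under 0.01. Leaving out 1 library gave from 99 to 256 (from 63 to 124 higher, from 36 to 132 lower). The 17 differences between starts (10 downstream higher, 7 upstream higher) became 8 (5, 3) in DESeq2, 7 (4, 3) with the downstream body density subtracted, and 5 (2, 3) at an adjusted p under 0.01. With the stretch between the starts subtracted they became 0 (0, 0) of 160, with 28 at an unadjusted p under 0.05 in edgeR, and 8 of 91 (3 downstream higher) with at least 20 reads left; both subtractions were chosen after seeing the data. Leaving out 1 library gave from 2 to 23 (from 0 to 14 and from 2 to 9). The gap in downstream share, 2.39 percentage points, turned to -0.84 with reads pooled over pairs, and leaving out 1 library gave from 2.06 to 2.66; the cause was not tested.

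The head counts showed no sign of pairing by replicate number: deviations of same-numbered libraries correlated at 0.049, -0.027 and 0.017. Whether same-numbered libraries were prepared together is not given in the labels. With replicate number as a block, 5 differences passed (2 downstream higher, 3 upstream higher) and 233 head windows. For the genes named by the rule, 43 of 408 alternative values of the difference fell below the threshold. For the head change, 60 of 660 did so. In turn, 1 and 3 values rose past it, and 0 reversed. Both totals include values of genes or windows that had not passed in the main fit and so could not fall below the threshold. The shares of calls that were lost are therefore higher than these counts give. Among these genes' called differences, settings passed ran from 5 of 13 in Ugp2 to 14 of 15 in Adipor2 and Tnip1. Depth limits the pairs with few reads: 215 of 278 had a mean of at least 20 reads in each window.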

Other observations

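Further genes in which both starts rose were picked after their values were seen. Ccl9, which encodes a chemokine, went from 139.6 ± 12.5 to 302 ± 46.6 normalised head reads upstream (SD, n = 3 each), and held downstream 50.0, 39.8 and 68.0 in WT against 181, 116 and 133 in DM. The groups were apart at both starts, with changes of 1.11 (edgeR, SE 0.175, adjusted p = 7.45e-04) and 1.44 (edgeR, SE 0.251, adjusted p = 0.00122). Sirpa, the gene of the CD47 receptor of myeloid cells, rose by 0.75 upstream (edgeR, SE 0.159, adjusted p = 0.00315) and by 0.97 downstream (edgeR, SE 0.180, adjusted p = 0.00164). Pparg, a lipid-sensing nuclear receptor gene, rose by 0.92 upstream (edgeR, SE 0.186, adjusted p = 0.00233) and by 1.48 downstream (edgeR, SE 0.362, adjusted p = 0.00705). Tcf7l2, a Wnt effector gene, rose at starts 153178 bp apart by 1.31 upstream (edgeR, SE 0.241, adjusted p = 0.00162) and by 2.14 downstream (edgeR, SE 0.504, adjusted p = 0.00578). Its upstream window overlaps Gm31734 in RefSeq.

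Both starts fell in Ikzf4, Cbfa2t3 and Vegfa, also picked after their values were seen. Ikzf4, an Ikaros family factor gene, held 96.7, 78.6 and 122 upstream in WT against 40.9, 43.6 and 50.6 in DM, and its starts, 23532 bp apart, fell by 1.14 upstream (edgeR, SE 0.240, adjusted p = 0.00300) and by 0.91 downstream (edgeR, SE 0.283, adjusted p = 0.0218). Cbfa2t3, a corepressor gene of the ETO family, fell by 1.07 upstream (edgeR, SE 0.212, adjusted p = 0.00216) and by 0.53 downstream (edgeR, SE 0.198, adjusted p = 0.0490). Its upstream window overlaps Gm10612 in RefSeq. Vegfa, the gene of an endothelial growth factor, fell by 0.44 upstream (edgeR, SE 0.144, adjusted p = 0.0267) and by 0.86 downstream (edgeR, SE 0.205, adjusted p = 0.00624). In none of these 7 genes did the difference between starts pass (edgeR adjusted p from 0.367 to 0.757).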
